A study of Mus musculus with 4 samples.

Results

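The genes described here are the core of actin turnover, the cycle in which actin filaments are cut, taken apart, recharged and rebuilt. They were measured by bulk RNA-seq in hair follicle stem cells (HF-SCs), the slow-cycling cells of the follicle bulge that restart hair growth. The set was chosen by symbol and comprised the cofilins Cfl1 and Cfl2, destrin (Dstn), the cofilin cofactor Wdr1, the profilins Pfn1 and Pfn2, thymosin beta 4 (Tmsb4x), the LIM kinases Limk1 and Limk2, and the slingshot phosphatase Ssh1. The choice also required a mean above 0 in the deposited table, so it is no result that all 10 have one. The table lists 24421 genes, of which 17044 had a mean above 0.

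The study examined HF-SCs sorted from adult mouse back skin after 2 d of miR-205 induction, with 2 control libraries and 2 miR-205 induced libraries, all from mice at postnatal day 44 with the strain label C57BL/6. Both groups carried the K14-H2BGFP allele, which marks epithelial nuclei, and were sex matched. Live cells were sorted as H2BGFP-high, Sca1-negative, α6 integrin-high and CD34-high. The induced mice carried a pTRE2-miR-205 transgene, made by injection into FVB mice, together with a Krt14-rtTA driver, so that doxycycline switched on miR-205 in skin epithelium, where keratin 14 is expressed, and not in the stem cells alone. The treatment label calls the controls untreated, whereas the extraction text says that both groups received doxycycline; the labels do not say how many mice each library pooled.

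The deposited table gives 1 mean per gene over the 4 libraries and does not name a library, so no value below belongs to the control or the induced group, and no comparison between those groups and no test was made. The mean is a DESeq2 normalized read count, that is, reads divided by the size factor of each library. Because a mean of 4 whole read counts can take only certain values, the reads behind it could be worked back for many genes, as a single set of 4 whole numbers that gives the deposited mean to its last digit. The 4 libraries were named A to D in order of falling size factor (1.237, 1.179, 0.9663 and 0.7163). These letters are names only.

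Actin filaments grow at one end and shrink at the other. Cofilin and destrin bind the older part of a filament, sever it and release monomers, and Wdr1 speeds up this disassembly. Profilins reload the released monomers with ATP and hand them to growing ends, while thymosin beta 4 holds monomers in reserve. LIM kinases switch cofilin off by phosphorylating it at a serine near its start, and slingshot phosphatases switch it on again. In skin the cycle underlies cell shape, migration and the tension that epithelial cells put on their neighbours.

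The phosphorylated serine is shown first, because it is the point at which the kinases and the phosphatase of the set act on the severing proteins. The first 30 coding bases of the 3 genes were read from GENCODE vM1 transcripts, with the third codon in capitals, which encodes the regulated serine when the start codon is counted.
Cfl1: atggccTCTggtgtggctgtctctgatggt
Cfl2: atggcaTCTggagttacagtgaatgatgaa
Dstn: atggccTCAggagttcaggttgcggatgaa
The codon was TCT in both cofilins and TCA in Dstn, and both of these spell serine. Over these 30 bases Cfl2 was identical to Cfl1 at 20 positions and Dstn at 19.

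The induced RNA was compared with the members by sequence alone. The mature miR-205-5p, from RefSeq (GRCm38.p6), is shown with its seed, bases 2 to 8, in capitals.
miR-205-5p: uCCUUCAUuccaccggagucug
Of the 10 members, 1 held the matching letters ATGAAGG in its longest annotated 3' untranslated region (UTR), and that was Ssh1, whose site lies on the minus strand of chromosome 5 at 114388259 to 114388265 (NCBIM37), in exon 15 of 15, at position 3983 of the 5145 bases of the UTR. The site is shown with its flanks and with the match in capitals.
Ssh1: cataagaccagATGAAGGtcattggtgtt
Among the 14417 genes with a mean above 0 and an annotated 3'UTR, 11.8% held the same letters, so 1 member in 10 is close to that share. The median length of the longest UTR of these genes was 1097 bases, so the UTR of Ssh1 is a long one. A shorter match to bases 2 to 7 of the RNA (TGAAGG) stood in 4 members, and 36.6% of the same 14417 genes held it. It occurred once each in Tmsb4x, Limk1 and Limk2 and at 2 further places in Ssh1, as the following stretches show in capitals.
Tmsb4x: ttgcatgttggTGAAGGaaaaagctggg
Limk1: gccagctgtgcTGAAGGaagaagggacc
Limk2: ttcctgtggatTGAAGGcttgcttagag
Ssh1, first place: tgtttacatttTGAAGGgtaaatggcgc
Ssh1, second place: gggtttctattTGAAGGctgcctttgct
Cfl1, Cfl2, Dstn, Wdr1, Pfn1 and Pfn2 held neither match in the UTR searched. With the shortest annotated 3'UTR of each gene, no member held ATGAAGG, against 6.49% of the 14417 genes. A match is a feature of the letters and says nothing of binding. On binding, the paper lists Tmsb4x among the actin and adhesion mRNAs that it captured by ligation to miR-205. No other member stands in that list.

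A second sequence search looked for the CArG box, the site of serum response factor, which is known for controlling actin genes. In 13 promoter windows of the 10 members (250 bases before to 50 after the start, both strands, RefSeq, GRCm38.p6), no CArG box was found, and 1.63% of all 32851 windows held one. These letters were absent from these windows only.

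The abundance of the members was then compared per length, as the authors' mean normalized count per kilobase (kb) of the union of exons. The highest transcript levels were those of Tmsb4x at 6433 per kb, Cfl1 at 5099, Dstn at 3000 and Pfn1 at 2847. Wdr1 followed at 827.4 per kb. A middle tier held the kinase Limk2 at 321.9, the profilin Pfn2 at 263.2 and the cofilin Cfl2 at 220 per kb, so the order did not follow role alone. The regulators Limk1, at 19.01 per kb, and Ssh1, at 7.415 per kb, were lowest. On this length-corrected scale, Tmsb4x lay at percentile 99.46 and Ssh1 at percentile 29.34 of the detected genes that had a length in the annotation. Without the length correction Ssh1 lay at percentile 42.45 of all detected genes, and at percentile 5.163 of those with a mean over 50 normalized counts.

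**Figure D1:**
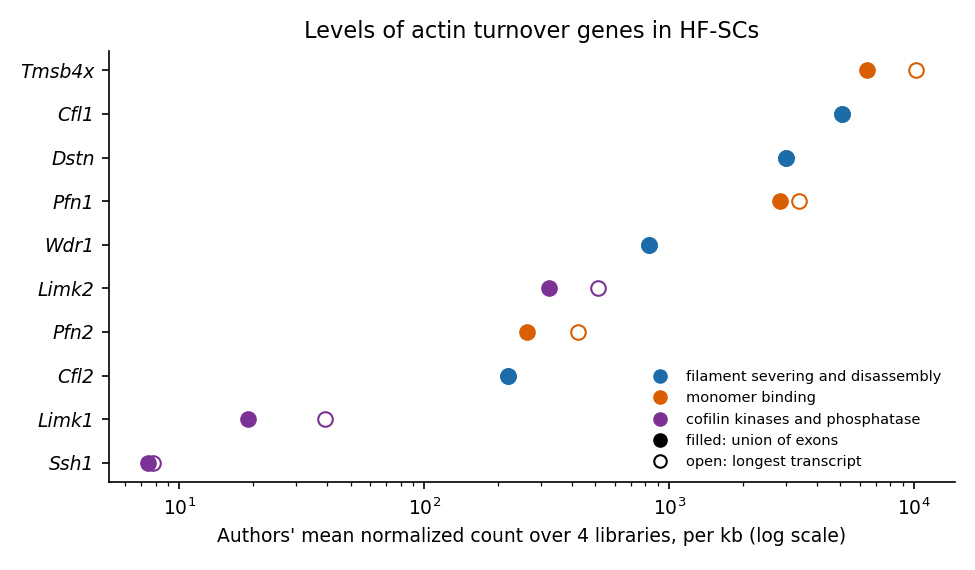
Authors' mean normalized count per kb over the 4 libraries for each of the 10 genes, on a log axis, with filled points for the union of exons and open points for the longest transcript; colours mark roles. The 4 highest genes lie between 2847 and 6433 per kb and the lowest, Ssh1, at 7.415 per kb on the exon union, and with the longest transcript Pfn1 and Dstn change places.

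Neighbours in this order were set against the spread over libraries where the reads could be worked back. The ranges of Limk2 (304.3 to 354.1 per kb) and Pfn2 (218.2 to 321.1 per kb) overlapped. Pfn2 also overlapped with Cfl2 (205.7 to 234.1 per kb), whereas Limk2 stood clear of Cfl2. With the longest transcript as the length, Pfn2 (350.3 to 515.6 per kb) no longer overlapped with Cfl2 but still did with Limk2 (482.2 to 561.1 per kb). Within libraries, Pfn2 was above Cfl2 in 4 of 4, and Limk2 was above Pfn2 in 3 of 4, the exception being A (318.6 against 321.1 per kb). Wdr1, at 669 to 997.9 per kb, stood clear of Limk2 below it and of Pfn1 (2704 to 3014 per kb) above it. Limk1, at 17.86 to 19.9 per kb, stood clear of Ssh1, at 6.983 to 8.204 per kb. The mean of Dstn lay inside the range of Pfn1, and with the longest transcript as the length Pfn1 (3392 per kb) passed Dstn (3000 per kb). For Tmsb4x, Cfl1 and Dstn the spread is not known, since more than 1 set of reads gave their mean.

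Cfl1, the general cofilin of non-muscle cells, had an authors' mean of 5853 normalized counts. It lies on chromosome 19 from 5490485 to 5494029 (all gene places are on NCBIM37). Dstn, the actin-depolymerizing factor, had a mean of 5733 normalized counts and lies on chromosome 2 from 143741056 to 143769060. Cfl2, the cofilin known from muscle, had a mean of 646.8 and lies on chromosome 12 from 55959804 to 55963864. Per length, Cfl1 made up 61.29% of the 3 genes, Dstn 36.06% and Cfl2 2.645%. Cfl1 was thus 1.7 times as high as Dstn per kb and 23.18 times as high as Cfl2. Without the length correction Cfl1 and Dstn were nearly level, at 47.85% and 46.86%.

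Reads of Cfl1 and Dstn can be split with near-identical copies: 3 other places in the genome matched the Cfl1 transcript at 90% identity or more over at least 200 bases, the closest at 97.8%, and 2 matched Dstn, the closest at 99.6%. How the authors' counting treated such reads is not given in the sources used here, so both means are uncertain to that extent. Pfn1 had 1 such copy at 90.5%, and the other 7 members had none. No exon of another annotated gene overlapped a member on either strand.

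For Cfl2, 851, 713, 595 and 486 reads were recovered in libraries A to D, or 688.2, 604.8, 615.7 and 678.4 normalized counts. Libraries A and D were the higher ones, and the highest was 1.138 times the lowest. The 95% Poisson intervals of these 2 libraries overlapped (642.7 to 736 against 561.3 to 650.9). Such intervals cover counting error only, and their overlap does not show that the libraries were alike. Cfl1 had 27 sets of reads that gave its mean and Dstn 5, and no library value is given for either.

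Wdr1, whose product disassembles cofilin-decorated filaments, and the profilin Pfn2 had the widest spread among the members that could be resolved, with nearly equal ratios. Wdr1 had a mean of 2439 normalized counts and lies on chromosome 5 from 38918053 to 38952905. The reads in libraries A to D were 3638, 2325, 2071 and 1934, or 2942, 1972, 2143 and 2700 normalized counts. Libraries A and D stood above the mean by 20.6% and 10.68%, and B and C below it. The highest was 1.492 times the lowest (1.373 times without B, where Pfn2 stayed at 1.472), and the intervals of A (2847 to 3039) and B (1893 to 2054) did not overlap.

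Pfn1, the profilin of most tissues, held nearly level in the set of reads recovered for it. Its mean was 2921 normalized counts, and it lies on chromosome 11 from 70465352 to 70468146. The recovered reads were 3688, 3271, 2738 and 2215 in libraries A to D, or 2982, 2775, 2833 and 3092 normalized counts. D was highest and B lowest, 1.114 times apart, yet with this many reads their intervals did not overlap (2965 to 3224 against 2681 to 2872). This set was unique only while the highest library was limited to 2 times the lowest, a limit set after seeing the data. With a wider limit 2 sets gave the mean of Pfn1, and with a tolerance 10 times wider 4 sets did. The near-level values of Pfn1 therefore rest on these settings.

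Pfn2, the profilin known best from brain, lies on chromosome 3 from 57645817 to 57651486 and had a mean of 794. Its libraries A to D held 1198, 829, 636 and 606 reads, or 968.8, 703.2, 658.2 and 846 normalized counts. As for Wdr1, A and D were the high libraries and B and C the low ones, here with C lowest. The ratio of highest to lowest was 1.472, and the intervals of A (914.7 to 1025) and C (608 to 711.4) did not overlap.

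Between the profilins, Pfn1 made up 91.54% per length by the authors' means and Pfn2 the remaining 8.463%. In the single libraries the share of Pfn1 was 90.05% in A, 92.07% in B, 92.68% in C and 91.49% in D. With the recovered set of Pfn1 reads, Pfn1 was the main profilin in every library, by 9.052 to 12.66 times per kb. The further profilins Pfn3 and Pfn4, known from testis, were listed at 0.

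Thymosin beta 4 (Tmsb4x), on chromosome X from 163645025 to 163647247, had the highest authors' mean of the set, 8820 normalized counts, at percentile 98.88 of detected genes. The mean could come from 15 sets of reads, so library values are not given. Per kb it was 1.262 times as high as Cfl1, and 2.002 times with the longest transcript as the length. The second thymosin on the wider list, Tmsb10, had a mean of 732.8 normalized counts, or 574.3 per kb, and stood at 825.6, 624.3, 795.8 and 685.4 normalized counts in A to D.

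**Figure D2:**
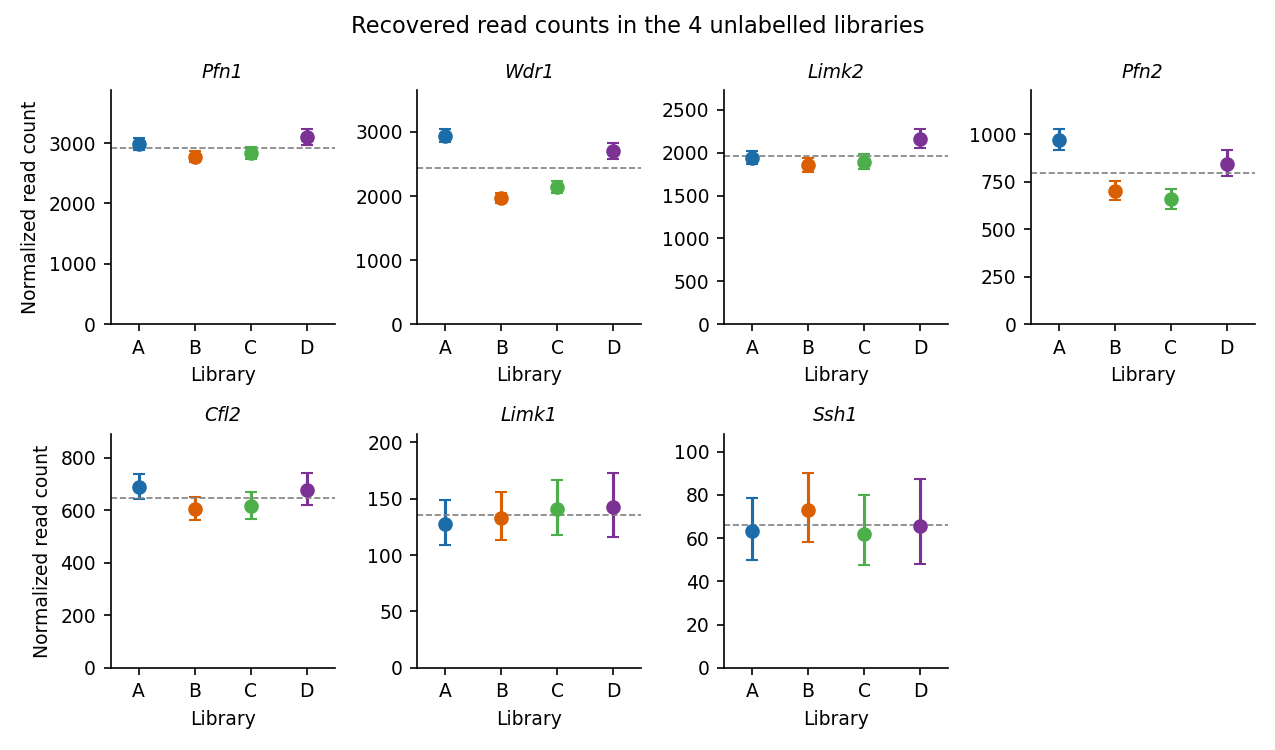
Normalized read counts of the 7 genes whose reads could be worked back, in libraries A to D, which carry no group label; bars are 95% Poisson intervals and cover counting error only, and the dashed line is the authors' mean. Wdr1 and Pfn2 are high in A and D and low in B and C, whereas the bars of Limk1 and Ssh1 overlap across all libraries.

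The kinases differed in level far more than the libraries did. Limk2, on chromosome 11 from 3244259 to 3309192, had a mean of 1963 normalized counts, with 2403, 2188, 1830 and 1547 reads in A to D. These gave 1943, 1856, 1894 and 2160 normalized counts. D stood above the other libraries, 1.164 times the lowest, B, and the intervals of these 2 did not overlap (2053 to 2270 against 1779 to 1936).

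Limk1, on chromosome 5 from 135131909 to 135164460, had a mean of 136 normalized counts, with 158, 157, 136 and 102 reads. The normalized counts were 127.8, 133.2, 140.7 and 142.4 in A to D, 1.114 times apart at most. The intervals of the highest and lowest overlapped (116.1 to 172.9 against 108.6 to 149.3), and no difference between libraries was detectable at this depth.

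Limk2 made up 94.42% of the LIM kinases per length. The share was 94.69%, 94.24%, 94.04% and 94.68% in A to D, a range narrower than that of the profilins. Limk2 exceeded Limk1 by 15.78 to 17.84 times per kb over the 4 libraries.

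**Figure D3:**
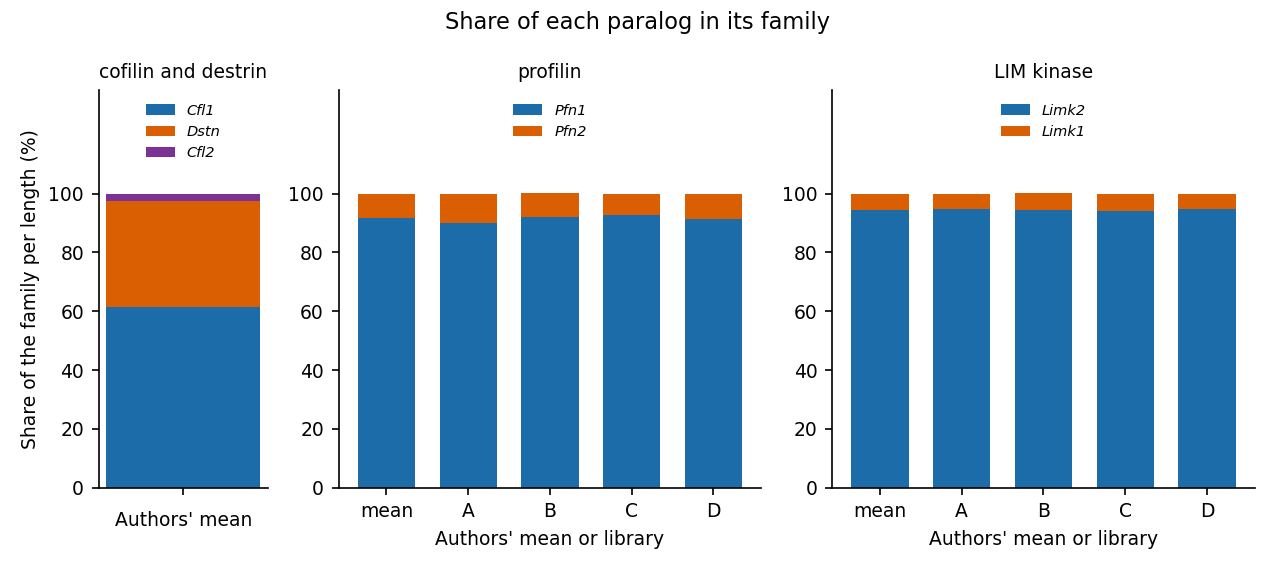
Share of each paralog in its family, in percent of the summed level per kb of exon, for the authors' mean and, where reads were recovered, libraries A to D. Cfl1 holds 61.29% of the cofilins and destrin, Pfn1 90.05 to 92.68% of the profilins and Limk2 94.04 to 94.69% of the LIM kinases.

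Ssh1, the phosphatase that reactivates cofilin, lies on chromosome 5 from 114387103 to 114443903 and was the lowest member, with a mean of 65.93 normalized counts. Its libraries A to D held 78, 86, 60 and 47 reads, or 63.08, 72.95, 62.09 and 65.61 normalized counts. B was highest and C lowest, 1.175 times apart, with overlapping intervals (58.35 to 90.1 against 47.38 to 79.92). At this depth a difference of that size was not detectable. Per kb, Limk2 exceeded Ssh1 by 37.09 to 47.99 times and Limk1 exceeded it by 2.269 to 2.817 times over the libraries. With the longest transcript as the length these ranges were 55.76 to 72.14 and 4.434 to 5.506 times. On the wider list Ssh3, another slingshot phosphatase, had the highest mean of the cofilin kinases and phosphatases, 962.1 normalized counts or 351.1 per kb, with 939.7, 932.3, 1017 and 959 normalized counts in A to D.

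The spread of each member was placed beside that of genes of like level, taking the 100 genes nearest in mean and, of these, those whose reads could be worked back. Among the 71 resolved neighbours of Wdr1, 83.1% had a smaller ratio of highest to lowest library, and among 100 neighbours of Pfn2, 87% did. The remaining members were on the even side. For Limk2 the share was 25.88%, for Pfn1 19.74%, for Cfl2 15%, for Ssh1 5% and for Limk1 2%. The share for Pfn1 holds only for the set of reads found under the ratio limit. The median ratio of the neighbours was 1.282 for Wdr1 and 1.231 for Pfn2. Neighbours with a ratio over 2 could not enter for means above 800, nor those over 4 for means between 100 and 800, since the recovery allowed no wider ratio there.

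**Figure D4:**
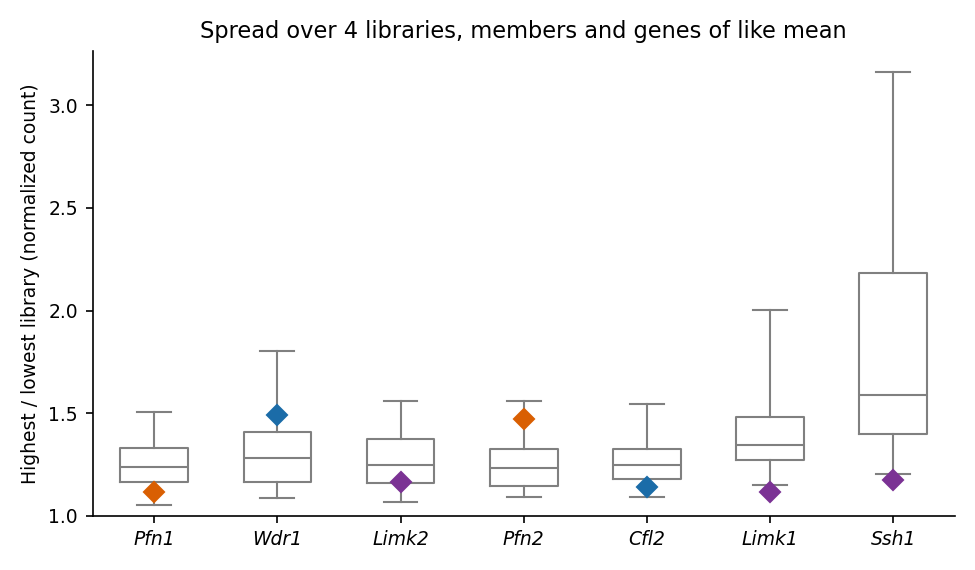
Ratio of the highest to the lowest of the 4 unlabelled libraries for 7 genes (diamonds) and for the resolved genes nearest to each in mean (boxes: quartiles and median, whiskers: 5th to 95th percentile). Wdr1 (1.492) and Pfn2 (1.472) lie above the middle of their neighbours, and Limk1 (1.114) and Ssh1 (1.175) lie at the lower end.

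The libraries also differed in genes of other cell types. The resolved myeloid markers (4 of 6) summed to 586.3, 1165, 1032 and 587.7 normalized counts in A to D. B and C were thus the high libraries here. They were the lower ones for Wdr1, Pfn2, Cfl2, Pfn1 and Limk2, but not for Limk1 and Ssh1. Lyz2 carried much of the myeloid sum (233.7, 768.6, 522.6 and 272.2), whereas Cd207 did not share the pattern (255.5, 189.2, 323.9 and 205.2). Both were named after their values were seen. The resolved sebaceous markers (3 of 4) summed to 66.31, 137.4, 168.7 and 54.44, with the same libraries high. Resolved fibroblast markers (4 of 6) summed to 3776, 4616, 4656 and 4018. Col3a1 carried most of this sum (2737, 3849, 3577 and 3424). The other resolved ones, Dcn, Lum and Pdgfra, were each higher in A and C than in B and D. These genes too were named after their values were seen. Endothelial markers (2 of 2) summed to 73.59, 75.5, 92.1 and 25.13. Skeletal muscle markers (4 of 4), which matter for Cfl2, summed to 3.235, 10.18, 4.139 and 5.584, and no muscle marker had a mean above 3.001. Suprabasal keratinocytes gave 1 resolved marker of 4, at 115.6, 113.7, 154.2 and 79.57, melanocytes 1 of 4, at 12.94, 5.09, 19.66 and 1.396, and T cells 2 at a sum of 12.13, 12.72, 14.49 and 18.15. The ratio limits of the recovery applied to these markers too, so a marker with a wider ratio could not enter the sums. The melanocyte markers left out had means of 218.6, 219 and 498.3. Of all genes with a mean above 0 up to 300, 99.83% were resolved. Why these markers were not resolved was not tested, and the sums may understate how much the libraries differed. The part of these cell types in the member values was not tested. In bulk samples fewer cells of a type cannot be told apart from less RNA per cell.

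The cell type label was checked against the same lists. All 10 markers of HF-SCs and basal keratinocytes had a mean over 50 normalized counts, as did 10342 of the 17044 detected genes, 4 of 4 suprabasal, 6 of 6 myeloid and 5 of 6 fibroblast markers, so this count does not set the label apart. The median mean of the list was 9274 normalized counts, against 2030 for the fibroblast, 1318 for the suprabasal and 346.4 for the myeloid markers, with Krt5 highest at 146100, and Cd34 at 14570 (named after its value was seen); the sort itself selected for CD34 and for α6 integrin, the product of Itga6, so these are no independent check. The 2 resolved genes of that list summed to 5014, 5363, 4602 and 5109 in A to D. The highest markers of other types were Krt10 (7246) for suprabasal keratinocytes, Col1a1 (5186) for fibroblasts, Scd1 (3085) for sebaceous cells, Cd74 (2744) for myeloid cells, Dct (498.3) for melanocytes, Pecam1 (36.37) for endothelium, Cd3e (9.52) for T cells and Ckm (3.001) for muscle, all as the authors' means.

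Actin itself set the scale for the turnover genes. Actg1 and Actb, the cytoplasmic actins, had authors' means of 99960 and 26290 normalized counts, or 37610 and 9813 per kb. Relative to the summed actins per kb, Tmsb4x stood at 0.1357, Cfl1 at 0.1075, Dstn at 0.06326 and Pfn1 at 0.06003. The 3 severing genes together came to 0.1754. With the longest transcript as the length, Tmsb4x stood at 0.1573, Cfl1 at 0.07856, Dstn at 0.04622 and Pfn1 at 0.05227. The severing genes together then came to 0.1282. These are ratios of transcripts, not of proteins. Near-identical copies elsewhere in the genome were searched for the members only. Reads that the actins may share with such copies were therefore not assessed.

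The wider list held 39 genes of the same pathway, of which 37 had a mean above 0 and 32 a mean over 50 normalized counts, a level that 10342 of the 17044 detected genes also exceeded. Its median mean was 830, that of the members 2201 and that of all detected genes 116.9. Among severing and depolymerizing proteins 9 of 11 exceeded 50, led by gelsolin (Gsn), which cuts and caps filaments under calcium, at 16120 normalized counts or 5139 per kb, close to Cfl1. All 5 kinases above the LIM kinases exceeded 50, led by Rock2 at 3886. Rock2 stood at 4954, 3465, 3043 and 4082 in A to D, with A and D high, and its ratio of highest to lowest was 1.628. The list did not share 1 order of libraries. Scin (303.2, 395.3, 433.6 and 284.8) and Twf1 (439.9, 539.5, 492.6 and 427.2) had B and C high. Of the capping proteins 5 of 7 exceeded 50, led by Capg at 5358. All 6 profilin partners exceeded 50, led by Enah, which extends filaments, at 2168. Of the remaining groups, 4 of 5 cofilin kinases and phosphatases, 1 of 3 monomer-binding genes and both actins exceeded 50.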

How the data were processed

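Bulk RNA-seq libraries were made by the authors from total RNA of sorted HF-SCs (directional NEBNext kit, Illumina NovaSeq). Reads of 150 nt were aligned by the authors with Hisat2 2.1.0, converted with SAMtools 1.3.1, counted with HTSeq and compared with DESeq2 at default settings. For HTSeq and DESeq2 the version, and for the counting the strand setting and gene models, were not given in the sources used here, and the methods name 2 genome builds (NCBI37/mm10) for 1 alignment. The deposited signal used here is the authors' mean normalized read count over the 4 libraries, printed to 15 significant digits. The other 5 columns hold the authors' own comparison (log2 fold change, its standard error, the statistic, the p-value and the adjusted p-value) and were not used.

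The mean is a sum of whole multiples of 4 steps, found from genes with few reads. Of 8171 genes with a mean up to 100, all came out as exactly 1 set of whole reads with no limit on ratios, and of 11172 up to 300, 99.83% did. Above 100 the highest library was limited to 4 times the lowest, and above 800 to 2 times. A set counted when it gave the mean within its last printed digit. The recovered genes hold 512367 to 892749 reads per library. This is part of each library, and its total depth is unknown. The procedure was tested on simulated reads drawn at the means of the resolved members. Of 350 drawn sets, 322 came out as exactly 1 set, and all 322 were right. At the means of Pfn1, Limk2 and Wdr1, 37, 42 and 44 of 50 did so. The simulation used the same steps as the recovery, so it cannot show errors in the steps. Intervals are exact 95% Poisson intervals. They cover counting error only.

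Libraries were put in no group, so no test was planned or run. Lengths, places and UTRs came from GENCODE vM1 (NCBIM37), with copies searched by BLAST 2.17.0, and promoters and miRNA from RefSeq (GRCm38.p6). Names absent from the table were matched through RefSeq synonyms. Python 3.11.15, numpy 2.4.6, scipy 1.17.1 and matplotlib 3.10.9 were used.

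Named were all members, the highest gene of each wider group and marker list, and both actins. Pfn3, Pfn4, Cd34, Lyz2, Cd207, Col3a1, Dcn, Lum, Pdgfra, Scin and Twf1 were added after their values were seen. Members and lists were chosen with earlier results of these data known. The ratio limits, the form of the tolerance, the 100 neighbours, the limit of 300 and the CArG search were set after seeing the data. Alternatives varied the length, the scaling, the tolerance, the ratio limit, the UTR and the libraries left out.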

Additional observations from a re-analysis of the deposited data

How the results depend on the processing

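The members kept their order per length in all but 1 pair when the longest transcript replaced the exon union (Pfn1 above Dstn). With the longest transcript the share of Pfn1 was 88.92% and that of Limk2 92.87%, and with no length correction they were 78.62% and 93.52%, and that of Cfl1 was 47.85%. The number of members with exactly 1 set of whole reads was 7, fell to 4 with a tolerance 10 times wider, and was 6 with a ratio limit 1.5 times wider, where Pfn1 had 2 sets. With the wider tolerance Wdr1, Pfn1 and Limk2 had 2, 4 and 2 sets, so their library values rest on the last printed digit. Members with a match to the miR-205 seed numbered 1, 4 with bases 2 to 7, and 0 with the shortest 3'UTR. Leaving out each library gave a share of Pfn1 between 91.18% and 92.06% and of Limk2 between 94.33% and 94.54%, a ratio of highest to lowest library between 1.369 and 1.492 for Wdr1 and between 1.285 and 1.472 for Pfn2, and no ratio moved by over 1.5 times. Scaling by the summed reads of recovered genes gave ratios of 1.593 for Wdr1 and 1.573 for Pfn2, a change of at most 6.866% for any member. No paired analysis was possible because the libraries behind the table carry no label and could not be matched to the replicate numbers. Depth limits Limk1 and Ssh1, whose counting intervals are wider than the differences seen.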
